A study of Mus musculus with 6 samples.

Results

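Genes that drive or mark the making of fat cells were followed in cultured mouse bone marrow stromal cells treated with GCA or with PBS. The set was 10 genes chosen by name: the regulators Pparg, Cebpa, Klf15, Ebf2 and Zfp423 and the fat cell products Fabp4, Adipoq, Plin1, Cidec and Cfd. Of these, 9 were found among the 27263 genes listed, by matching Ensembl identifiers to mouse symbols, and Cidec, which fuses lipid droplets, was not analysed here. The study measured gene expression by RNA sequencing in 3 libraries of GCA-treated cells (rGCA at 50 nM for 3 days) and 3 libraries of PBS-treated cells (the buffer alone for 3 days). Every library came from primary marrow cells of C57BL/6 mice, taken from the long bones of the hind leg and grown, after a sort that kept Sca-1+ CD29+ cells and left out CD45+ and CD11b+ cells, in serum-containing α-MEM. The labels do not spell out GCA; background knowledge of this study identifies it with grancalcin, which binds calcium in neutrophils and macrophages, so that rGCA would be the recombinant protein. The labels' protocols name no fat-inducing mixture. They give neither the age of the mice nor whether each replicate is an animal or culture of its own, so p-values reflect no more than the spread among the 6 libraries, which may be technical.

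Marrow stromal cells can become bone-forming cells or fat cells. In the fat direction, early factors such as C/EBPβ and C/EBPδ switch on PPARγ and C/EBPα, which hold each other active and turn on the genes of the mature fat cell. Those genes encode the coat and fusion proteins of lipid droplets, fatty acid carriers and secreted hormones. Macrophages also use PPARγ, C/EBPα and several of the fatty acid handling genes.

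The libraries were of nearly equal depth. Levels are in FPKM, fragment counts scaled to exon length and to the library total. The totals were inferred from the deposited values, at 17543510 to 18645930 fragments. Fragments recovered over genes came to 18929244 to 19943239, above the inferred total in each library. Although the sort left out CD45+ and CD11b+ cells, macrophage transcripts were abundant in every library. Ptprc, which encodes CD45, stood at 12.9, 14.5 and 13.0 FPKM in GCA libraries, against 12.6, 13.2 and 12.0 FPKM in PBS libraries. The 20 genes of a macrophage marker list summed to 18051 to 19217 FPKM in GCA libraries and 20408 to 22684 FPKM in PBS libraries. The lower GCA sum was carried by Lyz2: without it the sums were 9526 to 10005 FPKM with GCA and 7783 to 8639 FPKM with PBS. The 12 stromal markers, collagens among them, summed to 3222 to 3469 FPKM with GCA and 3868 to 4308 FPKM with PBS. The 5 fat cell markers analysed (Adipoq, Plin1, Lep, Cfd and Fabp4) summed to 24.3 to 31.6 FPKM with GCA and 24.4 to 27.5 FPKM with PBS. Nearly all of that was Fabp4, since the other 4 summed to 0.194 to 0.628 FPKM with GCA and 0.409 to 0.678 FPKM with PBS. The 8 endothelial markers summed to 2.60 to 3.30 FPKM with GCA and 2.72 to 2.97 FPKM with PBS. The 6 neutrophil markers analysed, of 8, summed to 8.20 to 14.5 FPKM with GCA and 11.7 to 15.7 FPKM with PBS.

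Start regions of Cebpa, Pparg and Adipoq are shown as examples of listed starts that differed in CpG, the base pair step at which vertebrate DNA is methylated. Each is the 250 bases before a RefSeq transcription start on GRCm38.p6, plus strand, read 5′ to 3′, with every CG in capitals. Cebpa is shown from chr7:35119043-35119292, the last of the 3 listed starts of Pparg from chr6:115421816-115422065 and Adipoq from chr16:23146286-23146535.
Cebpa: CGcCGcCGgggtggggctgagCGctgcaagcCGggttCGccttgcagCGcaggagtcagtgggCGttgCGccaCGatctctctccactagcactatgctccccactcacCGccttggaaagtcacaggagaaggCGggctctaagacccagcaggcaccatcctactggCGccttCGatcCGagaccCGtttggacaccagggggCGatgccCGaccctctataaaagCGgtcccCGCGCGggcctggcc
Pparg, last listed start: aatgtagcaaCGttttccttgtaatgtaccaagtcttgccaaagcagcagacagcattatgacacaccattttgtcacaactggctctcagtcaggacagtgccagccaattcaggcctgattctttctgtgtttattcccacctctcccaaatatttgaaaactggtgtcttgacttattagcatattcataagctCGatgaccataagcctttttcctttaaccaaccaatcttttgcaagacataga
Adipoq: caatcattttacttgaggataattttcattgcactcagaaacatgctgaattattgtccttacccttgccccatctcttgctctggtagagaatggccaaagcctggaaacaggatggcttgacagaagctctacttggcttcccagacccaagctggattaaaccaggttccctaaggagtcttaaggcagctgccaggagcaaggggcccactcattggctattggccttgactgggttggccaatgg
The Cebpa stretch holds 22 CG, the last Pparg start 2 and Adipoq 0. Over all 32851 listed starts of 27025 genes the median was 6 CG, and 7.87% had none.

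Among the regulators, Klf15 had 37 CG before its start, and the first of the 3 listed Pparg starts had 38, against 12 for the second. The 2 listed starts of Zfp423, which was under 1 FPKM, had 18 and 6. Among the products, Plin1 had 1, Cfd had 2 and the 2 listed starts of Cidec had 6 and 4. Annotated exons of the same gene cover 193 bases of the first Pparg stretch, 57 of the second and 127 of the Plin1 stretch. So at their richest start all 4 regulators with an entry were at or above the upper quartile of 16, and the 4 products with an entry were at or below the median of 6. That quartile and median are over single starts, so taking the richest start favours genes with several, such as Pparg and Zfp423. Ebf2, which was under 1 FPKM, and Fabp4, which was above it, had no entry. Across the genes analysed, taking the richest start of each, 76.3% of 6591 genes with at least 16 CG averaged 1 FPKM or more, against 21.3% of 1668 genes with at most 2. This is a description of sequence beside level. The deposited value is 1 number a gene, so which Pparg start was read cannot be told from it.

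Of the differentiation genes, 4 were plainly read in these cells, and the others lay under 1 FPKM, from low but measurable levels down to the limit of detection. Cebpa, the factor that holds the fat cell state together and is also used in myeloid cells, averaged 38.6 ± 4.42 FPKM in GCA libraries and 35.7 ± 2.64 FPKM in PBS libraries (SD, n = 3 each), above 95.1% of all genes listed. Fabp4, a fatty acid carrier of fat cells, macrophages and capillary endothelium, averaged 27.1 ± 3.60 FPKM with GCA and 25.1 ± 1.503 FPKM with PBS. Pparg, the nuclear receptor that commands fat cell differentiation, averaged 5.59 ± 1.03 FPKM with GCA and 5.07 ± 0.97 FPKM with PBS. Klf15, a zinc finger factor that acts on Pparg and on glucose transport in fat cells, averaged 2.79 ± 0.39 FPKM with GCA and 2.66 ± 0.22 FPKM with PBS. The other 5 members analysed averaged under 1 FPKM over the 6 libraries. Adipoq, Plin1 and Cfd, which are fat cell products, and Ebf2 and Zfp423, which mark early commitment, made up that group.

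**Figure D1:**
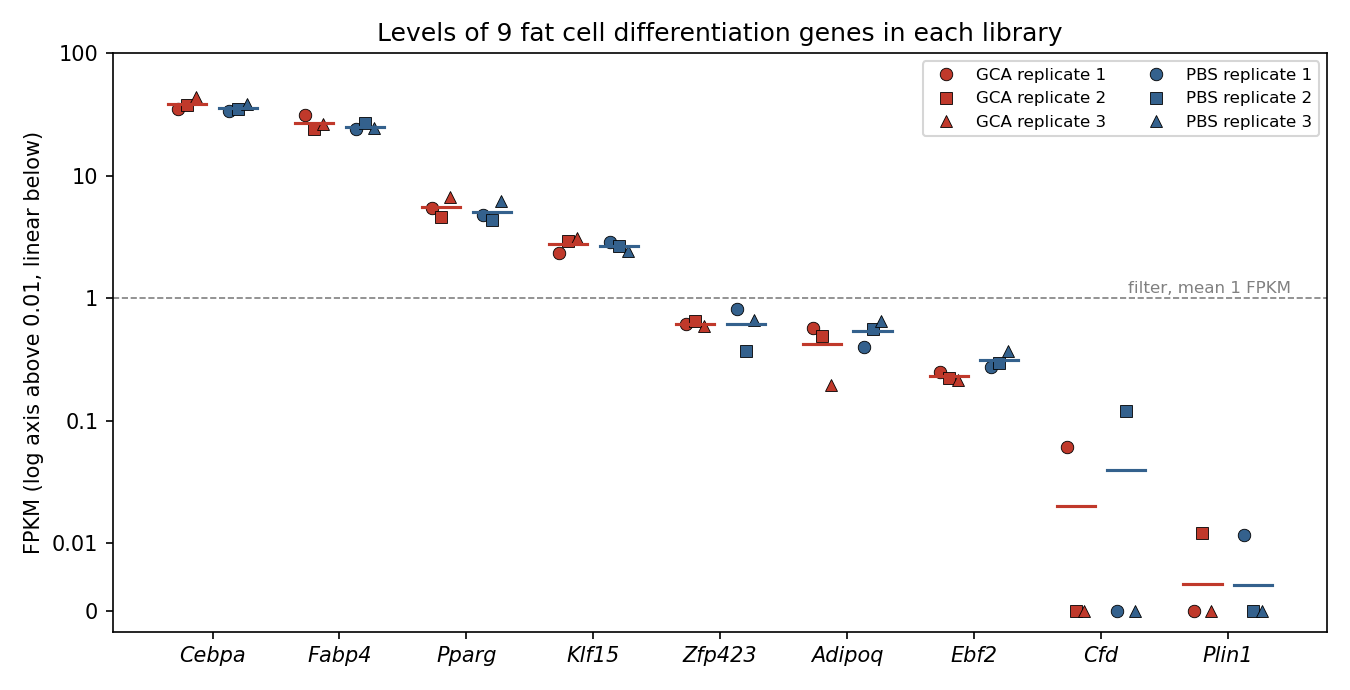
FPKM of the 9 genes analysed in each library, on an axis that is logarithmic above 0.01 FPKM and linear below it; GCA libraries are on the left of each pair, horizontal bars are group means, and the dashed line is the level of 1 FPKM needed for testing. Cebpa, Fabp4, Pparg and Klf15 lie above the line, and Cfd and Plin1 are at 0 in 4 of 6 libraries each.

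By level, the order was Cebpa, Fabp4, Pparg, Klf15, Zfp423, Adipoq, Ebf2, Cfd and Plin1. In that order the library values of Zfp423 overlapped those of Adipoq, those of Adipoq overlapped those of Ebf2, and those of Cfd overlapped those of Plin1. The other neighbours did not overlap in any library.

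The place of Fabp4 depends on the length it is divided by. Its exon length in GENCODE M21 is 4489 bases, the whole span of the gene (chromosome 3, 10204088 to 10208576, minus strand), because an annotated transcript with retained introns covers it. The coding transcript is 896 bases long, so the deposited FPKM is 5.01 times lower than a value per coding transcript. If every fragment came from the coding transcript, Fabp4 would stand at 155, 119 and 133 FPKM in GCA libraries, against 120, 134 and 123 FPKM in PBS libraries. On that scale Cebpa would stand at 34.8, 38.0 and 43.5 FPKM with GCA and 33.9, 34.8 and 38.9 FPKM with PBS, and Fabp4 would come first. The factor is the same in every library, so it leaves the comparison of GCA with PBS as it was.

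None of the 4 members tested passed the test for a change with GCA. With limma on log2(FPKM + 1), treatment as the only term and Benjamini-Hochberg adjustment over the 11984 genes that averaged at least 1 FPKM, 0 of 4 passed an adjusted p of 0.05, beside 17.9% of all genes tested, 11.5% higher and 6.43% lower. At an unadjusted p under 0.05 the count was 0 of 4, beside 32.8% of all genes. Limma-voom on the fragments recovered from the FPKM values also called 0 of 4, beside 22.3% of all genes. The GCA and PBS libraries overlapped for all 4. Over all genes tested, the groups did not overlap in 38.5%. The median log2 fold change of the 4 members was 0.10, beside 0.01 over all genes tested.

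Cebpa (ENSMUSG00000034957, chromosome 7, 35119293 to 35121928) stood at 34.6, 37.9 and 43.4 FPKM in GCA replicates 1 to 3, against 33.8, 34.6 and 38.7 FPKM in PBS replicates 1 to 3. Replicate 3 was the highest in both groups, and the groups overlapped. The log2 fold change was 0.11 (SE 0.09, limma adjusted p = 0.438), with a 95% interval of -0.10 to 0.31, or 0.936-fold to 1.24-fold. An antisense gene, Gm45091, shares exon sequence with Cebpa and averaged 0.678 FPKM over the 6 libraries, and with no stated strand setting reads of the 2 cannot be told apart.

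Pparg (ENSMUSG00000000440, chromosome 6, 115360951 to 115490399) stood at 5.46, 4.63 and 6.68 FPKM with GCA, against 4.74, 4.31 and 6.15 FPKM with PBS. Here too replicate 3 was the highest and replicate 2 the lowest in each group. The values rest on 240 to 368 fragments a library with GCA and 231 to 324 with PBS. Its log2 fold change of 0.12 (SE 0.14, limma adjusted p = 0.611) had the widest interval of the 4, from -0.22 to 0.46, or 0.858-fold to 1.38-fold.

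Fabp4 (ENSMUSG00000062515) stood at 31.0, 23.8 and 26.5 FPKM with GCA, against 24.0, 26.8 and 24.5 FPKM with PBS. GCA replicate 1 was the highest library and GCA replicate 2 the lowest, so the PBS libraries lay inside the range of the GCA libraries. The log2 fold change was 0.10 (SE 0.09, limma adjusted p = 0.490; interval -0.11 to 0.31, or 0.925-fold to 1.24-fold).

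Klf15 (ENSMUSG00000030087, chromosome 6, 90462576 to 90475238) stood at 2.35, 2.92 and 3.09 FPKM with GCA, against 2.87, 2.68 and 2.43 FPKM with PBS. The lowest and the highest library were both GCA libraries. Its log2 fold change was 0.05 (SE 0.09, limma adjusted p = 0.777; interval -0.17 to 0.26, or 0.891-fold to 1.20-fold). Without GCA replicate 3 or without PBS replicate 3 it was -0.01 or -0.00082. A p above the threshold does not show that the levels were equal. The intervals reflect only the spread among these libraries, which may be technical. All log2 fold changes, intervals and the folds given for intervals are on the log2(FPKM + 1) scale, which understates those of low genes.

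**Figure D2:**
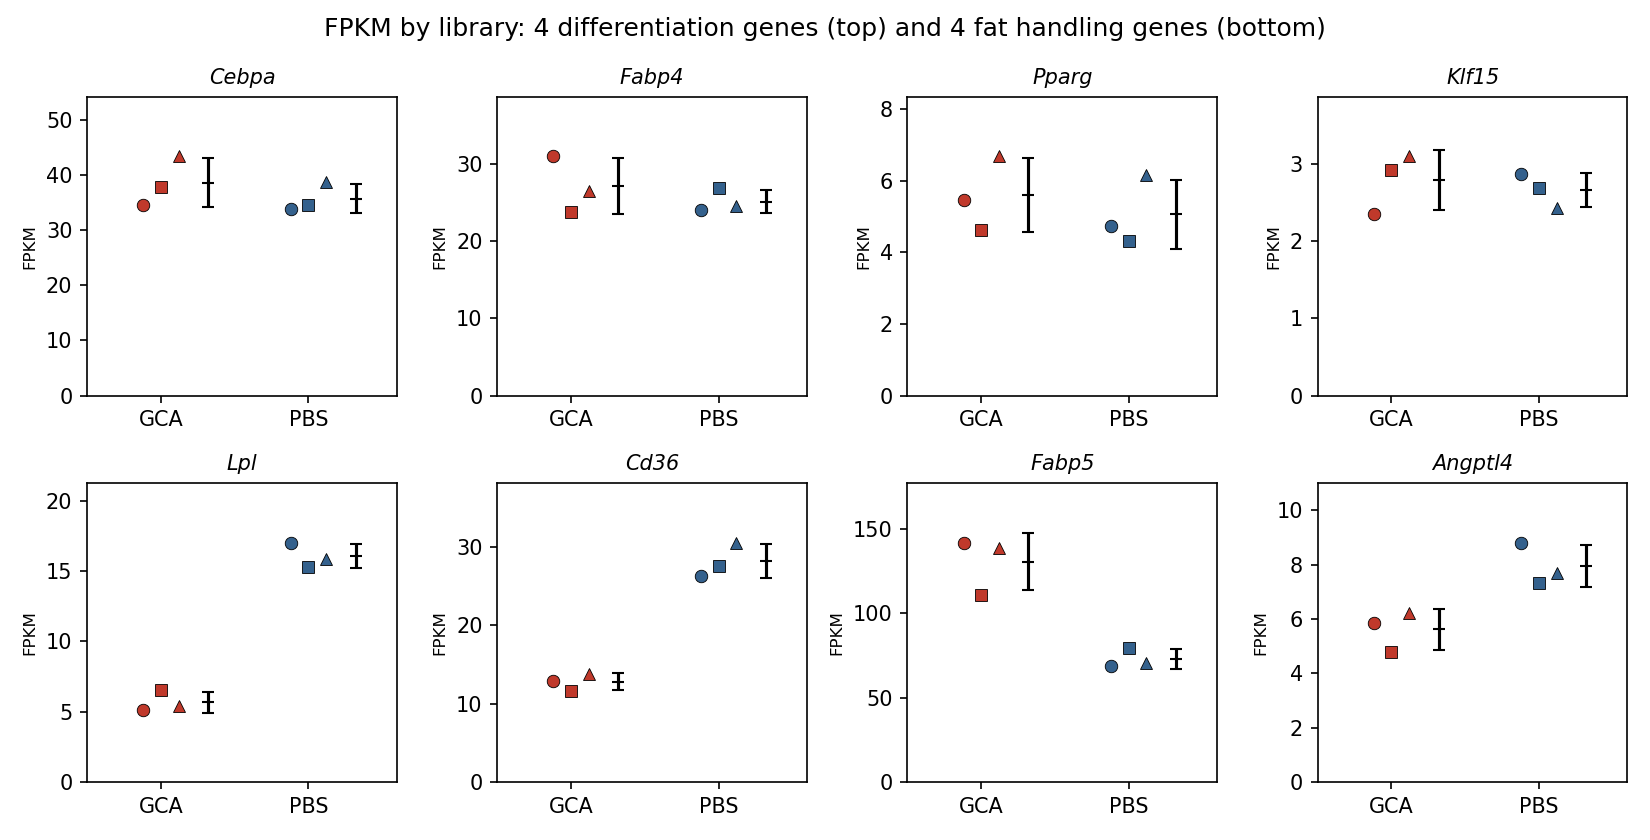
FPKM by library for 4 differentiation genes (top row) and 4 genes of fatty acid handling (bottom row), GCA left of PBS; circles, squares and triangles are replicates 1, 2 and 3, and bars are the mean ± SD of 3 libraries. The groups overlap in every panel of the top row and in no panel of the bottom row. The bottom row was chosen from genes that passed the test, so its lack of overlap follows from that choice. Over all genes tested, the groups did not overlap in 38.5%.

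Of the 3 secreted or droplet products of the mature fat cell that were analysed, Plin1 and Cfd were near the limit of detection. Adipoq was low, with 5 to 16 fragments a library. Adipoq encodes adiponectin, the hormone secreted by fat cells (ENSMUSG00000022878, chromosome 16, 23146536 to 23158028). It stood at 0.568, 0.495 and 0.194 FPKM with GCA, against 0.397, 0.558 and 0.650 FPKM with PBS. These are 14, 12 and 5 fragments in GCA libraries and 10, 14 and 16 in PBS libraries, and the groups overlapped. Plin1, the coat protein of the fat cell's lipid droplet, had 0, 1 and 0 fragments in GCA libraries and 1, 0 and 0 in PBS libraries. Cfd, which encodes adipsin, a complement protease secreted by fat cells, had 1, 0 and 0 fragments with GCA and 0, 2 and 0 with PBS. A library with 0 fragments allows up to 3, which is 0.0346 to 0.0368 FPKM for Plin1 and 0.174 to 0.185 FPKM for Cfd, for counting error only. Both groups were at or under that limit for both genes, so no fold is given.

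The early commitment factors were low but measurable. Zfp423, a zinc finger factor of committed fat cell precursors (ENSMUSG00000045333, chromosome 8, 87661810 to 87959595), stood at 0.619, 0.651 and 0.593 FPKM with GCA, against 0.812, 0.373 and 0.670 FPKM with PBS. The PBS libraries spread around the GCA libraries, and each group summed to 188 fragments. Ebf2, a factor of brown and beige fat precursors (ENSMUSG00000022053, chromosome 14, 67233292 to 67430918), stood at 0.251, 0.222 and 0.217 FPKM with GCA, against 0.277, 0.294 and 0.372 FPKM with PBS. It was the only member analysed whose groups did not overlap, with 86 fragments over the GCA libraries and 118 over the PBS libraries. Among genes below the level needed for testing, the groups did not overlap in 9.74%, either direction counted. In 4.27% all 3 GCA libraries lay below all 3 PBS libraries. Fitted without that filter, Ebf2 had a log2 fold change of -0.10 and a limma adjusted p of 0.590. In that fit 0 of 9 members passed, beside 3.94% of all genes, and the adjusted p was 0.663 for Adipoq and 0.990 for Zfp423.

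Of 16 transcription factors that act before or beside Pparg and Cebpa, 15 were tested; Zfp467 rose and the other 14 did not pass. That is 6.67% called, beside 17.9% of all genes tested. The median log2 fold change was -0.02. Zfp467 is a zinc finger factor that in mouse marrow stroma favours fat over bone. It stood at 7.61, 7.94 and 7.50 FPKM in GCA libraries, against 6.77, 6.47 and 6.54 FPKM in PBS libraries. All 3 GCA libraries lay above all 3 PBS libraries, and groups were apart in either direction in 38.5% of all genes tested. The log2 fold change was 0.19 (SE 0.05, limma adjusted p = 0.0331). That call was lost on leaving out any of the 6 libraries (adjusted p = 0.0552 to 0.104) and with the replicate number as a block (0.0633). Cebpb, the early C/EBP factor, ranged from 12.8 to 35.7 FPKM with GCA, the highest in GCA replicate 3, and from 11.2 to 17.0 FPKM with PBS (limma adjusted p = 0.475). Cebpd, its early partner, averaged 19.0 ± 2.26 FPKM with GCA and 20.9 ± 1.43 FPKM with PBS (SD, n = 3 each; limma adjusted p = 0.331). Stat5a and Stat5b, which carry growth hormone and cytokine signals and promote fat cell differentiation in mouse cells, had log2 fold changes of 0.19 and 0.17 (limma adjusted p = 0.107 and 0.135). Without GCA replicate 1 that of Stat5b passed at 0.0417. Srebf1, a regulator of fatty acid synthesis, had a log2 fold change of 0.11 and Klf9, a zinc finger factor, -0.11 (limma adjusted p = 0.183 and 0.306).

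Of 16 partners, coactivators and corepressors of PPARγ, 13 were tested; Tle3 rose and the other 12 did not pass, so that 7.69% were called, beside 17.9% of all genes tested. Tle3, which works with PPARγ in mouse fat cell differentiation, stood at 10.79, 10.96 and 10.99 FPKM with GCA, against 9.17, 8.78 and 9.07 FPKM with PBS. The groups did not overlap, as in 38.5% of all genes tested. The log2 fold change was 0.25 (SE 0.05, limma adjusted p = 0.00896), and the call held on leaving out each library in turn. Rxra, the receptor that pairs with PPARγ on DNA, averaged 31.6 ± 0.67 FPKM with GCA and 30.6 ± 0.37 FPKM with PBS (SD, n = 3 each; limma adjusted p = 0.498). Crebbp, a coactivator with acetyltransferase activity, had a log2 fold change of -0.16 and did not pass (limma adjusted p = 0.122). With limma-voom on recovered fragments it passed (adjusted p = 0.0394). Nrip1, a corepressor, and Hdac3, the deacetylase of corepressor complexes, did not pass (limma adjusted p = 0.296 and 0.309).

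Of 16 genes that hold back fat cell differentiation, 12 were tested, 2 rose, 1 fell and 9 did not pass; the median log2 fold change was -0.06. Called genes made up 25% of the list, beside 17.9% of all genes tested (11.5% higher and 6.43% lower). This list too was chosen with earlier results of these data known, so the share is only a description. Klf2, which represses Pparg, stood at 13.7, 15.03 and 16.8 FPKM with GCA, against 12.2, 11.3 and 12.2 FPKM with PBS. Every GCA library lay above every PBS library, and groups were apart in either direction in 38.5% of all genes tested. The log2 fold change was 0.32 (SE 0.07, limma adjusted p = 0.0205). Tgfb1, a growth factor that blocks fat cell differentiation in culture and is made by macrophages too, averaged 44.2 ± 1.67 FPKM with GCA and 37.4 ± 0.67 FPKM with PBS (SD, n = 3 each; log2 0.23, limma adjusted p = 0.0118). Ddit3, the stress factor CHOP that inhibits C/EBP proteins, fell to 22.4 ± 0.78 FPKM with GCA, against 25.8 ± 0.74 FPKM with PBS (SD, n = 3 each; log2 -0.19, limma adjusted p = 0.0269). The call of Klf2 was lost without PBS replicate 1, 2 or 3 (limma adjusted p = 0.0527, 0.0743 and 0.0540), and that of Tgfb1 without PBS replicate 3 (0.0524). The call of Ddit3 was lost without any library but GCA replicate 2 (0.0552 to 0.0939) and with the replicate block (0.0515). Zfp521 opposes Zfp423 and Ebf factors, and Wwtr1, which encodes TAZ, restrains PPARγ. Their log2 fold changes of -0.17 and -0.16 did not pass (limma adjusted p = 0.155 and 0.162). Dlk1, the secreted or membrane factor known as Pref-1 that marks fat cell precursors, was at 0 to 0.0099 FPKM with GCA and 0 to 0.00991 FPKM with PBS. Nr2f2, the orphan receptor COUP-TFII, stood at 0.630, 0.529 and 0.522 FPKM with GCA and 1.21, 0.785 and 0.917 FPKM with PBS. The groups did not overlap, as in 9.74% of genes below the level needed for testing. Fitted without the filter, Nr2f2 did not pass (limma adjusted p = 0.149).

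**Figure D3:**
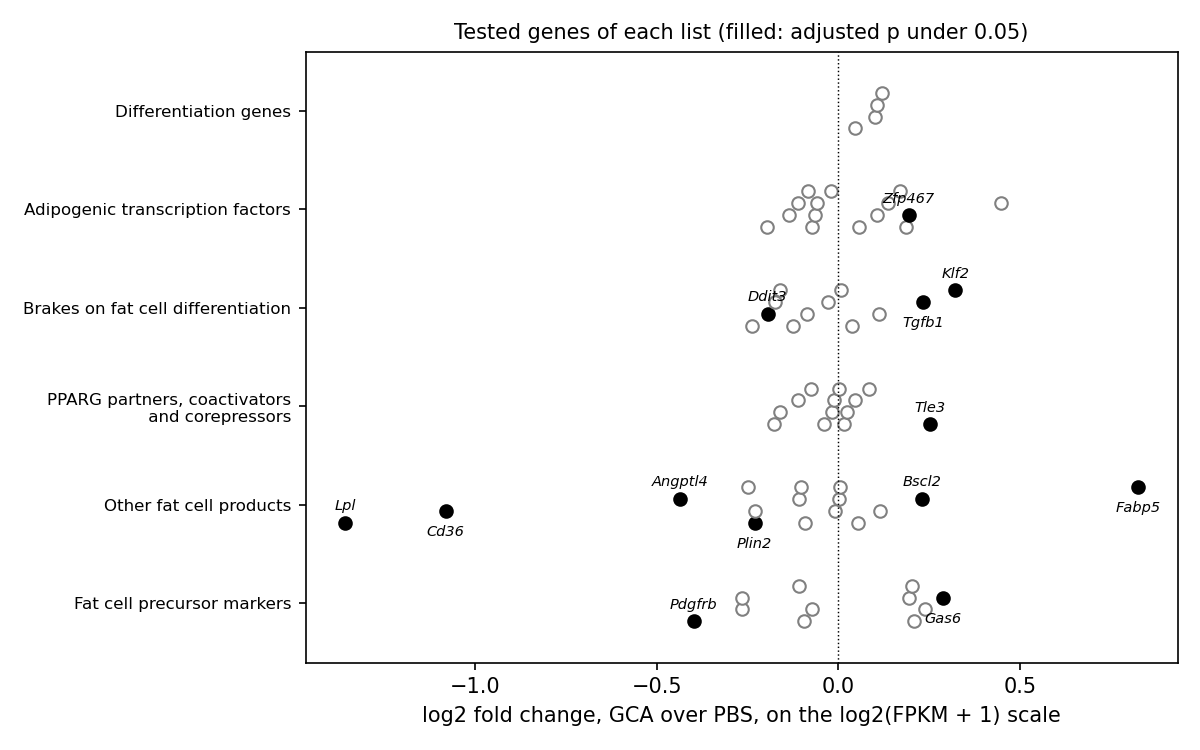
Log2 fold change of every tested gene in the set of differentiation genes and in the 5 other lists, GCA over PBS on the log2(FPKM + 1) scale; filled points passed an adjusted p of 0.05 and are named. The widest changes, of Lpl, Cd36 and Fabp5, are in the list of other fat cell products, and no point of the differentiation genes is filled.

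Several widely shared genes of fatty acid handling changed, foremost Lpl and Cd36, which fell, and Fabp5, which rose. Of 28 other fat cell products 16 were tested, 4 fell, 2 rose and 10 did not pass, so that 37.5% were called beside 17.9% of all genes, and the median log2 fold change was -0.10. The list was chosen with earlier results of these data known, so its share describes these genes and is no test of the list. The 4 that fell were Lpl, Cd36, Angptl4 and Plin2, and the 2 that rose were Fabp5 and Bscl2. None of the 6 is made by fat cells alone, and macrophages express Lpl, Cd36, Plin2 and Fabp5. In the same libraries 9 of 19 tested macrophage markers rose, 1 fell and 9 did not pass; the marker that fell was Lyz2. Of the 12 stromal markers, 5 fell, none rose and 7 did not pass. Over all genes tested 11.5% rose and 6.43% fell. The part of these cell types in the changes was not tested, and in bulk RNA fewer cells of a type and less RNA per cell cannot be told apart.

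Lpl encodes lipoprotein lipase, which frees fatty acids from circulating fat (chromosome 8, 68880491 to 68907448). It stood at 5.13, 6.52 and 5.36 FPKM in GCA libraries, against 17.0, 15.3 and 15.8 FPKM in PBS libraries. The highest GCA library was under the lowest PBS library by a wide margin, and the ratio of mean FPKM was 0.353. On the log2(FPKM + 1) scale the log2 fold change was -1.36 (SE 0.08, limma adjusted p = 0.00025). Cd36, the fatty acid and oxidized lipoprotein receptor, fell to 12.9, 11.6 and 13.8 FPKM with GCA, against 26.3, 27.6 and 30.5 FPKM with PBS (log2 -1.08, SE 0.08, limma adjusted p = 0.000275). Set against Cebpa within each library, Cd36 stood at 0.373, 0.306 and 0.318 of its FPKM with GCA and at 0.778, 0.798 and 0.789 with PBS. This ratio does not depend on library totals, and it was not tested.

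Fabp5, a fatty acid carrier related to Fabp4, rose, and Fabp4 did not pass. It stood at 142, 111 and 138 FPKM with GCA, against 68.7, 79.7 and 70.5 FPKM with PBS (log2 0.83, SE 0.10, limma adjusted p = 0.00226). The groups were apart, as in 38.5% of all genes tested, with GCA replicate 2 the lowest of its group. The Fabp5 FPKM was 4.59, 4.66 and 5.22 times the Fabp4 FPKM in GCA libraries and 2.86, 2.97 and 2.87 times in PBS libraries. Both are divided by exon lengths that exceed their coding transcripts, 3.61 times for Fabp5 and 5.01 times for Fabp4, so the ratio compares libraries and not the amounts of the 2 carriers. The ratio was not tested.

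Angptl4, a secreted inhibitor of lipoprotein lipase and a PPAR target, was the sixth of the list by p and is named because it passed. It stood at 5.86, 4.77 and 6.23 FPKM with GCA, against 8.81, 7.32 and 7.68 FPKM with PBS (log2 -0.44, SE 0.10, limma adjusted p = 0.02). Plin2, a droplet coat protein not made by fat cells alone, fell to 103, 93.1 and 93.9 FPKM with GCA, against 114, 112 and 114 FPKM with PBS (log2 -0.23, SE 0.05, limma adjusted p = 0.0179). Bscl2 encodes seipin, which shapes lipid droplets at the endoplasmic reticulum. It rose to 22.7, 21.5 and 21.8 FPKM with GCA, against 18.5, 18.6 and 18.6 FPKM with PBS (log2 0.23, SE 0.04, limma adjusted p = 0.0106). The calls of Lpl, Cd36, Fabp5 and Bscl2 held on leaving out each library in turn. That of Angptl4 was lost without PBS replicate 1 or 3 (adjusted p = 0.0657 and 0.055), and that of Plin2 without GCA replicate 3, PBS replicate 2 or PBS replicate 3 (0.0591, 0.0548 and 0.0644).

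Among other fat cell products, Lep, Retn, Ucp1 and Cidea stayed with Plin1 and Cfd near 0. Adipoq was low but above them, at 0.194 to 0.650 FPKM over the 6 libraries. Plin4, of the same list, averaged 1.92 ± 0.26 FPKM with GCA and 2.42 ± 0.16 FPKM with PBS (SD, n = 3 each). Its groups did not overlap, and it did not pass (limma adjusted p = 0.105). Lep, the hormone leptin, was listed at 0 in all 3 GCA libraries and in 2 of 3 PBS libraries, with 0.0167 FPKM in PBS replicate 3. Retn, which encodes resistin, was listed at 0 in all 3 GCA libraries and in 2 of 3 PBS libraries. Ucp1, the uncoupling protein of brown fat, and Cidea, a droplet protein of brown fat, were each above 0 in GCA replicate 2 alone, at 0.0348 and 0.049 FPKM. Other enzymes of the list are given as examples by level. Agpat2, which acts in the synthesis of triglyceride, stood at 12.04, 13.6 and 11.7 FPKM with GCA, against 14.5, 13.99 and 16.5 FPKM with PBS. Its groups did not overlap, as in 38.5% of all genes tested, and it did not pass (log2 -0.25, limma adjusted p = 0.0601). Fasn, fatty acid synthase, averaged 18.5 ± 0.71 FPKM with GCA and 18.6 ± 0.63 FPKM with PBS (SD, n = 3 each; limma adjusted p = 0.934). Lipe, hormone-sensitive lipase, averaged 1.57 ± 0.28 FPKM with GCA and 1.47 ± 0.20 FPKM with PBS (SD, n = 3 each; limma adjusted p = 0.771).

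**Figure D4:**
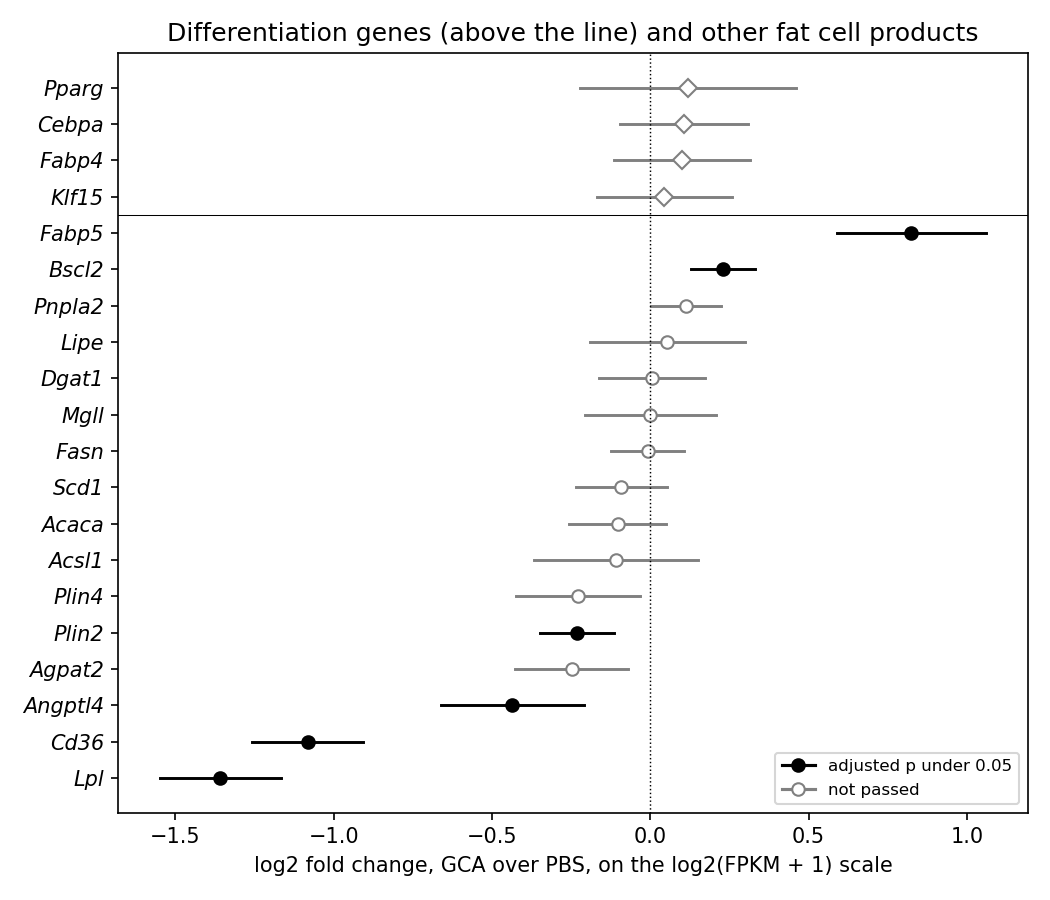
Log2 fold change with its 95% interval, GCA over PBS on the log2(FPKM + 1) scale, for the 4 tested differentiation genes (diamonds, above the line) and the 16 tested genes of the list of other fat cell products (circles); black marks passed an adjusted p of 0.05. The intervals of Pparg, Cebpa, Fabp4 and Klf15 all include 0, and those of Lpl at -1.36, Cd36 at -1.08 and Fabp5 at 0.83 lie clear of it.

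Of 15 markers of fat cell precursors, 11 were tested, 1 rose, 1 fell and 9 did not pass. The 18.2% called is close to the 17.9% of all genes tested. Pdgfrb, a platelet-derived growth factor receptor of perivascular stromal cells, fell to 20.6, 23.0 and 22.3 FPKM with GCA, against 32.4, 27.6 and 27.9 FPKM with PBS (log2 -0.40, SE 0.07, limma adjusted p = 0.00847). Gas6, a ligand of TAM receptors made by marrow stroma, rose to 493, 439 and 516 FPKM with GCA, against 408, 363 and 412 FPKM with PBS (log2 0.29, SE 0.08, limma adjusted p = 0.0342). The groups of both genes were apart, as in 38.5% of all genes tested, and the call of Pdgfrb held on leaving out each library. That of Gas6 was lost without any library but GCA replicate 2 (adjusted p = 0.0601 to 0.112). Ly6a, which encodes the Sca-1 used in the sort, averaged 324 ± 33.2 FPKM with GCA and 284 ± 41.4 FPKM with PBS (SD, n = 3 each; limma adjusted p = 0.283). Kitl, the Kit ligand of the marrow niche, and Cd24a, a surface marker of early fat cell precursors, did not pass (limma adjusted p = 0.0646 and 0.186), though Kitl passed without PBS replicate 1 (0.0443) and with limma-voom on recovered fragments (0.0304). Lepr, the leptin receptor of marrow stroma that yields fat cells, was under 1 FPKM, at 0.262, 0.259 and 0.259 FPKM with GCA and 0.591, 0.430 and 0.350 FPKM with PBS. The Lepr groups did not overlap, as in 9.74% of genes below the level needed for testing, and fitted without that filter it did not pass (limma adjusted p = 0.297).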

How the data were processed

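RNA was sequenced as paired-end reads from 6 libraries, 3 per group, per the labels' protocols. The authors deposited 1 value per Ensembl gene and library. The unit is not named in the labels or headers. It was identified as FPKM from the deposited values: multiplied by the exon-union length in GENCODE M21, 90.7% to 91.04% of values above 0 in a library were whole fragments within 0.02, over 1 total per library. Bowtie 0.12.2 is named with the builds mm8 and mm9, per the submitters' processing notes; no counting tool, annotation or strand setting was found, each being not given in the sources used here. Gene names, lengths and coordinates are from GENCODE M21 on GRCm38, matched by identifier for 27204 of 27263 genes. M21 is an annotation of neither named build, so the build behind the alignment is not known here. Start regions are RefSeq's, on GRCm38.p6, with 8 of 10 members matched.

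The test was limma-trend (limma 3.58.1 under R 4.3.3), robustly moderated, on log2(FPKM + 1) for genes averaging at least 1 FPKM, two-sided, with Benjamini-Hochberg adjustment over all genes tested. It was also run on simulated libraries with known changes. Their replicate spread was a fixed setting and not taken from these libraries, so that run does not measure accuracy here. Alternatives were a replicate block, other scalings, filters and pseudocounts, plain limma, limma-voom on recovered fragments, another threshold and leaving out each library. The members and lists were chosen with earlier results of these data known. Named genes are all members and the 5 smallest p of each list; other list genes are examples, and 1 gene that the rule names is not reported here. No pair of libraries in a group agreed within sampling noise (mean chi-square per gene of 5.37 to 20.2 within groups). Tables and plots used Python 3.11.15, pandas 2.3.3, numpy 2.4.6 and matplotlib 3.10.9.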

Additional observations from a re-analysis of the deposited data

How the results depend on the processing

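None of the members tested passed under any alternative run: 0 of 4 with limma under each scaling, pseudocount, moderation, threshold, replicate block and left-out library, 0 of 3 with a filter at a mean of 5 FPKM and 0 of 9 with no filter. Their log2 fold changes kept their sign in 57 of 59 alternative values, and the exceptions were Klf15 without GCA replicate 3 (-0.0137) and without PBS replicate 3 (-0.00082); its highest on leaving out a library was 0.13, without GCA replicate 1. Over the alternatives the lowest adjusted p was 0.149 for Fabp4, 0.195 for Cebpa, 0.222 for Pparg and 0.356 for Klf15. The count over all genes was 2151 as reported, 1232 to 2088 on leaving out a library and 1075 with no filter, which tests 27263 genes. Leaving out GCA replicate 1 gave 1375, PBS replicate 2 gave 1308 and PBS replicate 3 gave 1232. Quantile normalization gave 1198 higher and 1027 lower calls, beside 1380 and 771 as reported.

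The other fat cell products gave 4 to 7 calls over all alternatives. The adipogenic factors gave 1 call as reported, 0 with no filter, 0 with the replicate block and 0 to 1 on leaving out a library. The genes that hold back differentiation gave 3, with 1 with no filter and 0 to 3 on leaving out a library. The PPARγ partners gave 1, with 3 by limma-voom on recovered fragments and 2 at an adjusted p threshold of 0.1. The precursor markers gave 2, with 1 with no filter, 1 by limma without trend and robust moderation, 3 by limma-voom and 1 to 3 on leaving out a library. Of the other named genes' values under alternatives, 346 of 385 kept their side of the threshold, 34 lost a call, 5 gained one and none changed sign. With no filter the calls of Zfp467, Klf2, Ddit3, Gas6, Plin2 and Angptl4 were lost (adjusted p = 0.0586 to 0.113), and that of Gas6 also without trend and robust moderation (0.0542). The cause of these shifts was not tested, except that no filter adds low genes to the adjustment. The main fit did not pair libraries by replicate number, because the labels only share those numbers. Same-numbered libraries had deviations from their group means correlated at 0.08, 0.03 and 0.07. Each library did correlate best with its own number, a hint from the data and not the design, and the block gave 2094 calls. Depth limits Adipoq, Plin1, Cfd, Ebf2 and Zfp423, which rest on 0 to 83 fragments a library.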
